A study of Neurospora crassa with 22 samples.

Results

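Of the 42691 peaks in the 17 peak lists of this chromatin immunoprecipitation sequencing (ChIP-seq) study of Neurospora crassa, 1187 (2.78%) lay on sequence outside the 7 chromosomes. They were chosen by contig name alone: every peak whose contig was not Supercontig_12.1 to Supercontig_12.7, the names of the 7 chromosomes in assembly NC12. There were 1115 such peaks on 12 small pieces, Supercontig_12.8 to Supercontig_12.19, and 72 on Supercontig_10.21, which carries a name from another assembly series. Supercontig_10.21 is treated apart from the small pieces throughout.

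The study mapped 3 tagged transcription factors of plant cell wall breakdown. CLR-1 and CLR-2 are zinc binuclear cluster regulators of cellulase genes, and XLR-1 is the regulator of hemicellulase genes. In all groups the mycelium was grown on sucrose for 16 h and then moved to the test carbon source, and the strains derive from OR74A (FGSC2489). CLR-1-GFP came from a strain with his-3::p_ccg1::clr1-GFP and deltaclr1::HygR. It had 3 lists after 4 h on Avicel, a microcrystalline cellulose, 2 lists after 4 h on sucrose and 1 list after 24 h on Avicel. V5-tagged CLR-1, from the strain clr1-V5::HygR with deltamus51::bar, mat a, had 1 list after 4 h on Avicel, and its label names no antibody. mCherry-CLR-2 came from his-3::p_ccg1::mCherry-clr2 with deltaclr2::HygR. It had 3 lists after 4 h on Avicel and 1 after 24 h, the latter from a heterokaryon. XLR-1-GFP came from his-3::p_ccg1::xlr1-GFP with deltaxlr1::HygR and had 3 lists each after 4 h on Avicel and on xylan. The ccg-1 promoter is named in every one of these genotypes except the V5 one. The times are written in the labels without a unit and were read as hours. The labels do not say that the lists of a group came from separate cultures, so a p-value here measures the spread between lists, which may be technical. Input and tag-alone libraries have no list and were not analysed here, so no peak values of a control are given.

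Ribosomal RNA (rRNA) genes of fungi stand in long tandem repeats. Each repeat holds the genes of the small-subunit rRNA, the 5.8S rRNA and the large-subunit rRNA in this order, and a nontranscribed spacer separates one repeat from the next. In N. crassa the array lies at the nucleolus organizer on linkage group V, while the 5S rRNA genes are dispersed over the genome. The array is collapsed or left in unplaced pieces in genome assemblies because its copies are almost identical. Mitochondrial DNA is another high-copy sequence, with its own genome inside the organelle, and Supercontig_10.21 is a name used for it in the Broad Institute releases. That identity is background and was not tested by sequence. What the files give is its extent: the highest peak end on it was 64264, and the last mitochondrial gene in the RefSeq table for NC12 ended at 63934.

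The lists held 701 to 8194 peaks and 21985 to 6551667 tags (sequence reads counted in peaks) in all. A share of tags below is a share of the tags in a list's peaks, not of the sequenced library. The tables give a library size for no list, but the FPKM values of the V5 list (tags per kilobase, scaled by library size) correspond to 1 and the same library size in each of its 1523 peaks with a value. In that library 10.22% of all tags were in peaks and 0.802% in peaks on the small pieces. No table of the 17 gave a gene of its own beside any of these 1187 peaks. The gene entries beside 60 of them, all in XLR-1 xylan list 2, are copied from another list and were not used.

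The small pieces were occupied in 16 of the 17 lists and Supercontig_10.21 in 9. The longest pieces held most peaks: Supercontig_12.8, with peaks up to 192391 bp, had 411, Supercontig_12.9, up to 142417 bp, had 319, and Supercontig_12.10, up to 125424 bp, had 173. The other 9 small pieces, spanning 4849 to 31743 bp, had 10 to 52 peaks each. CLR-1 on Avicel had 116, 87 and 83 peaks on the small pieces in its 3 lists at 4 h, and CLR-2 had 145, 88 and 172. XLR-1 had 41, 24 and 30 on Avicel and 44, 41 and 43 on xylan, fewer than in any 4 h list of CLR-1 or CLR-2 on Avicel. CLR-1 on sucrose had 73 peaks there in list 1 and 1 in list 2, so its 2 lists stood far apart. The V5 list had 71, the CLR-1 list at 24 h had 56 and the CLR-2 list at 24 h had none among 1672 peaks.

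**Figure D1:**
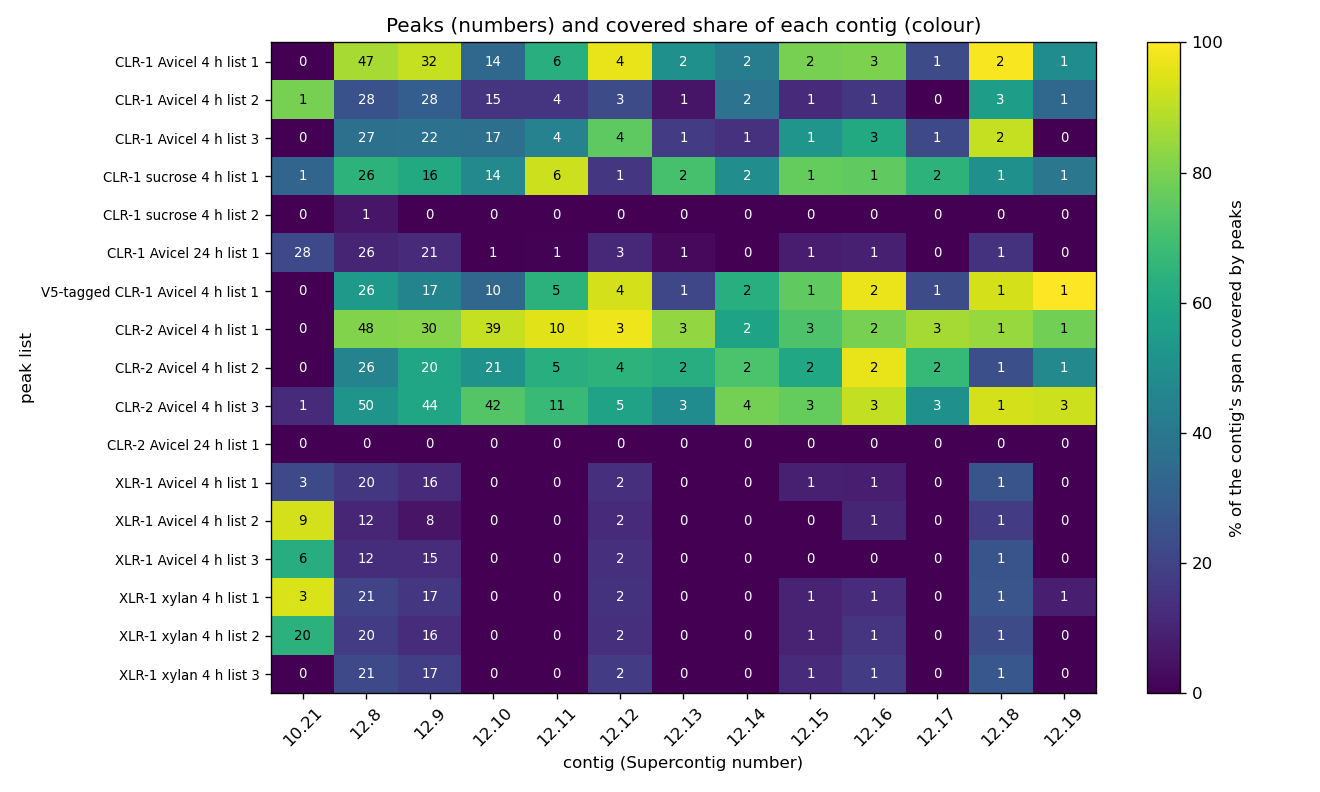
Number of peaks (printed) and share of the contig's span covered by peaks (colour, in %) for each of the 17 lists (rows) and each contig outside the 7 chromosomes (columns). The 6 XLR-1 lists have 0 on Supercontig_12.10, Supercontig_12.11, Supercontig_12.13, Supercontig_12.14 and Supercontig_12.17, and the CLR-2 list at 24 h has 0 on every contig.

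XLR-1 peaks were absent from 5 of the 12 small pieces. Supercontig_12.10, Supercontig_12.11, Supercontig_12.13, Supercontig_12.14 and Supercontig_12.17, with a joint span of 189 kb, held no peak in any of the 6 XLR-1 lists, which is the pattern that singled them out, so it is a description with no test. CLR-2 peaks covered 89.1%, 55.4% and 70.0% of that span in its 3 lists at 4 h, with 57, 32 and 63 peaks. In CLR-2 list 2, the one with 55.4%, the authors' false discovery rate had a median of 100% on the small pieces. CLR-1 peaks covered 39.96%, 15.4% and 34.9% on Avicel, 57.2% in sucrose list 1 and 38.7% in the V5 list, against 0.419% at 24 h, from 3 peaks. The median fold there was 0.570, 2.15 and 1 in the CLR-2 lists and 3, 4.91 and 2.75 in the CLR-1 Avicel lists, while the chromosome peaks of the latter had medians of 4.99, 8.65 and 5.05. The medians were below those of the chromosome peaks in the 3 CLR-1 lists, and the CLR-2 chromosome peaks had medians of 0.5, 2.25 and 1.15. Among the CLR lists at 4 h, sucrose list 2 was the exception with 0 peaks on these pieces.

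The 3 pieces Supercontig_12.8, Supercontig_12.9 and Supercontig_12.12 were matched to runs of rRNA genes by extent. RefSeq places 135 rRNA genes of NC12 on unplaced sequence without naming the piece, and they form 7 runs of rising position. The run of 69 genes ends at 192308, which is 83 bp from the highest peak end on Supercontig_12.8. The run of 49 genes ends at 142473, which is 56 bp from that of Supercontig_12.9, and the run of 7 genes ends at 19707, which is 57 bp from that of Supercontig_12.12. Each of these runs was matched to the piece within 100 bp, and no other piece came within that distance. The 4 remaining runs end below 10 kb and were not matched. The 7 pieces with an XLR-1 peak are as many as the runs, but which short piece holds which short run was not settled. Exchanging the runs of the 2 longest pieces moved the share of XLR-1 summits in spacers there from 96.8% to 41.3%, and 38.1% of the 3 pieces' length is spacer. In the matched runs the repeat is visible: the small-subunit genes, with a median length of 1789 bp, start every 8826 bp (median), and the 40 spacers between repeats are 3346 to 3688 bp long.

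The peaks repeated at the length of that unit. The median distance between consecutive XLR-1 summits on Supercontig_12.8 and Supercontig_12.9 was 8830, 8857 and 8836 bp in the 3 xylan lists and 8838 bp in Avicel list 1. It was 16673 and 8971 bp in Avicel lists 2 and 3, which have gaps in the ladder. Peaks of CLR-1 and CLR-2 stood closer, at 2756 to 7827 bp in the 9 lists with a ladder, and lay over the genes as well as the spacers. Of the 40 spacers, 33 held a summit in at least 12 of the 17 lists and 17 in all 6 XLR-1 lists. The copies are nearly identical in sequence and how the aligner placed reads that match several of them is not given in the sources used here. The count of one copy is therefore uncertain, and the copies are not independent sites. Peaks beside rRNA genes were not confined to these pieces. RefSeq also places NCU15610 (1 to 1577) and NCU15612 (2045 to 5250) at the start of chromosome V. Beyond them all 6 XLR-1 lists had a peak, with summits at 7023 to 7209 and folds of 13.4 to 30.6. The CLR-1 lists other than sucrose list 2, the V5 list and CLR-2 list 1 also had a peak there.

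Apart from the 11-kb peak described below, XLR-1 summits lay in the spacers and almost nowhere else on these pieces. With that peak left out, the spacers held 97.3%, 95.2% and 96.4% of the XLR-1 summits in the Avicel lists. In the xylan lists they held 97.4%, 97.3% and 97.4%. The XLR-1 lists had 21 to 39 such summits each. The 1 summit outside a spacer was at the same place in all 6 lists, at 199 to 206 bp on Supercontig_12.9, just inside the start of the large-subunit gene NCU15760 (187 to 3385), at the end of the piece. The spacer share was 47.6%, 65.5% and 61.5% in the CLR-1 Avicel lists, 59.5% in sucrose list 1, 60.9% in the V5 list and 51.9%, 48.0% and 45.5% in the CLR-2 lists at 4 h. The XLR-1 lists were all higher than the CLR lists. The mean was 96.9% ± 0.879 (SD, n = 6) for XLR-1 and 55.0% ± 7.69 (SD, n = 8) for CLR-1 and CLR-2 at 4 h, a difference of 41.8 percentage points (exact permutation test over lists, two-sided, p = 0.000333, the smallest this test can give; adjusted p = 0.00167 over 5 such tests). This test was added after the values had been seen. It pools lists of different carbon sources and, for CLR, of different factors and tags, so they are not replicates of a single condition. Sucrose list 2 is not among the 8, because its only peak on these pieces is the 11-kb peak. Within Avicel alone the lists of XLR-1 did not overlap with those of CLR-1 or CLR-2, but 3 lists against 3 cannot go below the exact p of 0.1 that both comparisons gave. XLR-1 on Avicel and on xylan had 96.3% ± 1.03 and 97.4% ± 0.0800 (SD, n = 3 each; exact permutation p = 0.2).

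The remaining CLR summits were in the rRNA genes. Of the summits of CLR-2 list 3, for example, 45 were in spacers, 18 in small-subunit genes and 34 in large-subunit genes, of 99. In CLR-1 Avicel list 1 the numbers were 39, 16 and 26 of 82. The large-subunit genes take up 34.5% of the length of the 3 pieces, the small-subunit genes 20.1% and the spacers 38.1%. CLR-1 at 24 h, with 1 list, had 38 of 50 summits (76.0%) in spacers. Peak width and depth moved with this difference. The median length of the spacer peaks was 962 to 1621 bp in the XLR-1 lists and 1480 to 6455 bp in the CLR lists at 4 h. Among peaks of at most 2 kb the mean share was 96.9% for XLR-1 and 54.1% ± 21.8 (SD, n = 7 lists with at least 10 such peaks) for CLR-1 and CLR-2 at 4 h, whose lists scattered from 16.7% in CLR-2 list 2 to 81.5% in CLR-1 Avicel list 3. The tags of the XLR-1 lists numbered 21985 to 60964 except in Avicel list 3 with 487609, while the CLR lists at 4 h held 92332 or more, and the part of depth was not tested.

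**Figure D2:**
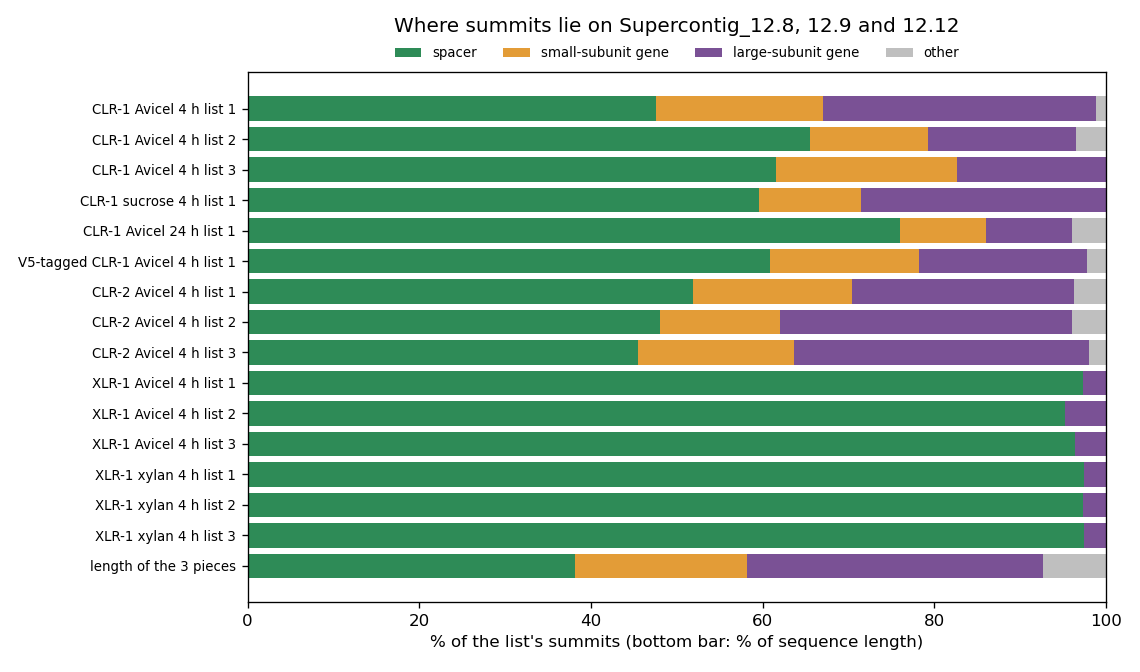
Share of peak summits on Supercontig_12.8, Supercontig_12.9 and Supercontig_12.12 that lie in rRNA gene spacers, small-subunit genes, large-subunit genes or elsewhere, in % of each list's summits without the 11-kb peak. The bottom bar gives the same classes as a share of sequence length. The 6 XLR-1 lists are at 95.2% to 97.4% spacer, the CLR lists at 45.5% to 76.0%.

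Within the spacer most XLR-1 summits lay at other distances than most CLR-1 and CLR-2 summits, which shared their most frequent position. The distance was measured from the summit to the small-subunit gene that borders the spacer. In XLR-1 lists 95 of 190 spacer summits lay 2 to 2.1 kb from that gene, 47 lay 1.8 to 2 kb from it and 29 lay 1.4 to 1.6 kb from it. In CLR-1 lists 110 of 194 and in CLR-2 lists 54.6% lay 1.6 to 1.7 kb away. The CLR-1 list at 24 h differed, with 5 of 37 summits there and 12 at 1.8 to 1.9 kb. The list medians were 1933, 1892 and 2032 bp for XLR-1 on Avicel and 2042, 2040 and 2053 bp on xylan. They were 1834, 1668 and 1653 bp for CLR-1 on Avicel, 1654 bp on sucrose, 1781 bp at 24 h, 1657 bp for V5-tagged CLR-1 and 1653, 2165 and 1656 bp for CLR-2. The V5 fusion, under its own strain background, had its median 4 bp or less from those of sucrose list 1 and CLR-1 Avicel list 3. CLR-2 lists 1 and 3 were as close, so this was not particular to CLR-1. The medians of CLR-1 Avicel list 1 and the CLR-1 list at 24 h lay further off. The mean of list medians was 1999 bp ± 68.3 (SD, n = 6) for XLR-1 and 1743 bp ± 182 (SD, n = 8) for the CLR lists at 4 h (exact permutation test, two-sided, p = 0.0120, added after the values had been seen). Lists were pooled as for the spacer share, and the part of peak width and depth was not tested.

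CLR-2 list 2 stood apart from the other 2 CLR-2 lists, with a median 2165 bp away and middle 50% of distances between 2153 and 2179 bp. The authors' false discovery rate had a median of 100% in this list, on the small pieces and on the chromosomes. In CLR-2 lists 1 and 3 the small-piece medians were 0.18% and 2.64%. Many peaks of list 2 thus did not stand out from the control by that value. Without CLR-2 list 2 the CLR mean was 1682 bp ± 67.2 (SD, n = 7) and the exact permutation p was 0.00117. That list was left out because its distances had been seen to differ, and no other list was left out for this result. The lower p is therefore no added support. On the chromosomes its summits also matched those of its group less closely. Where a peak of one list overlapped exactly 1 of the other, the median absolute distance between summits was 310 bp for lists 2 and 1 and 70 bp for lists 3 and 1. Peak tags and folds in the spacers differed widely between lists. XLR-1 peaks had 13 to 285 tags each with folds of 3.65 to 40.7, and CLR-2 list 2 peaks had 1306 to 9128 tags with folds of 2.42 to 5.88.

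**Figure D3:**
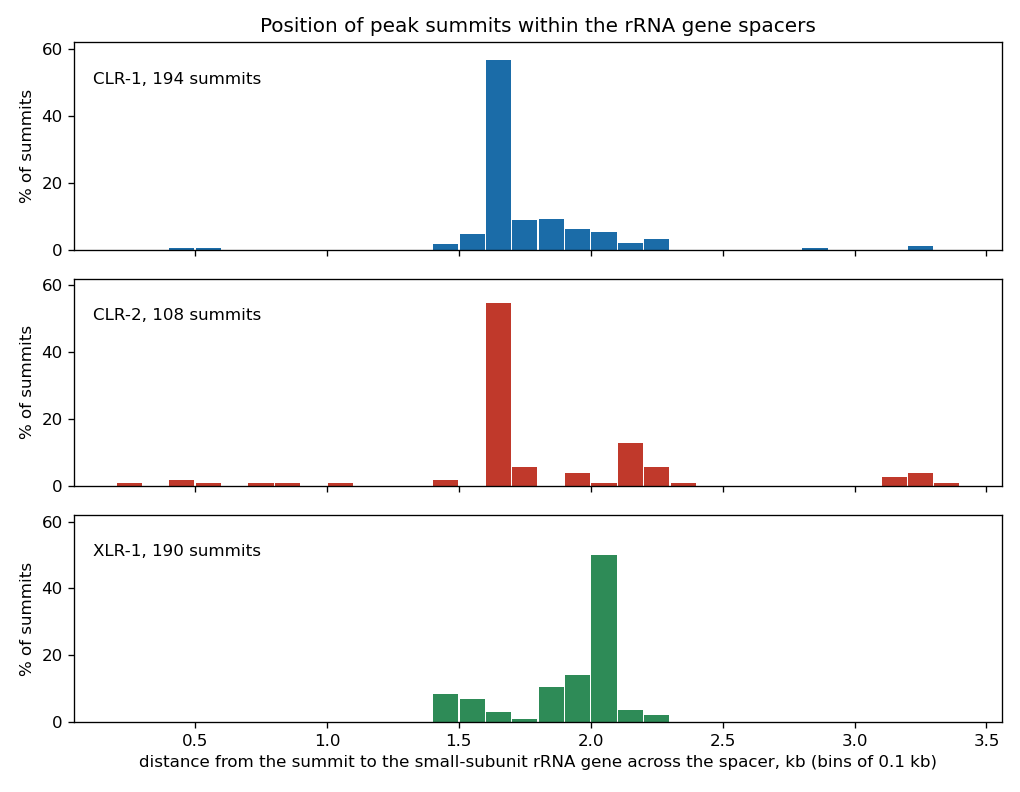
Distance from peak summits in the spacers to the small-subunit rRNA gene (x axis, kb, bins of 0.1 kb) as % of the summits of each factor (y axis), all lists of a factor pooled. CLR-1 and CLR-2 are highest at 1.6 to 1.7 kb, and XLR-1 is highest at 2 to 2.1 kb with 50% of its 190 summits.

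One repeat differed from all others. On Supercontig_12.8 a single broad peak, 10.5 to 11.9 kb long, started between 90038 and 90519 and ended between 100834 and 102242 in 12 of the 17 lists. By the matched run it covers the small-subunit gene NCU15719 (93495 to 95223), the 154-bp gene NCU17318 (95446 to 95599) and the large-subunit gene NCU17319 (95733 to 98623) with spacer on both sides. Its summit lay inside these genes in 9 of the 12 lists, among them all 3 XLR-1 xylan lists. In the 3 XLR-1 Avicel lists the summit lay in a spacer. The peak was in all 3 CLR-1 Avicel lists at 4 h with 10179, 4025 and 12298 tags, in both sucrose lists with 13646 and 18645, and in the V5 list with 13325. XLR-1 had it with 2956, 2326 and 7202 tags on Avicel and 2347, 2833 and 8017 on xylan. All 4 CLR-2 lists and the CLR-1 list at 24 h had no peak anywhere over this repeat, while peaks of the CLR-2 lists at 4 h covered 81.1%, 44.8% and 51.6% of the span of the piece.

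The peak was dense. Tags per kilobase were 3.17 to 8.69 times those of the other peaks on the small pieces in the 11 lists that have both. It had more tags per kilobase than any other peak of its list in 11 of the 12 lists, and most tags in 9. It held 66.7%, 79.6% and 72.2% of the small-piece tags in the XLR-1 Avicel lists, 38.6%, 61.5% and 53.6% in the xylan lists, and 16.0%, 36.8% and 28.2% in the CLR-1 Avicel lists. In sucrose list 2 it was the only peak on the small pieces, with a fold of 1.61, against 7.76 in sucrose list 1. Its fold was 157.87 in XLR-1 Avicel list 1, the highest of 2328 peaks, and 105.59 and 40.2 in lists 2 and 3, where it ranked 5th and 6th. By fold it ranked 61st, 44th and 32nd in the xylan lists, 111th, 9th and 215th in the CLR-1 Avicel lists and 2106th of 2111 in sucrose list 2. The V5 peak had an FPKM of 132, against medians of 23.3 over the small-piece peaks and 20.7 over the chromosome peaks of that list.

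The genes of this repeat are shorter in the annotation than most copies. NCU17319 is 2891 bp long, against a median of 3279 bp over the 40 large-subunit genes, and 3 of them, itself included, are as short or shorter. NCU15719 is 1729 bp, against 1789 bp over 42 small-subunit genes, and again 3, itself included, are as short or shorter. Both classes were set by length, so shorter copies are left out of them by definition. A further 10 rRNA entries of 573 to 2038 bp were classed as partial and are not in these counts. Whether these copies differ enough for reads to be placed here alone was not tested.

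**Figure D4:**
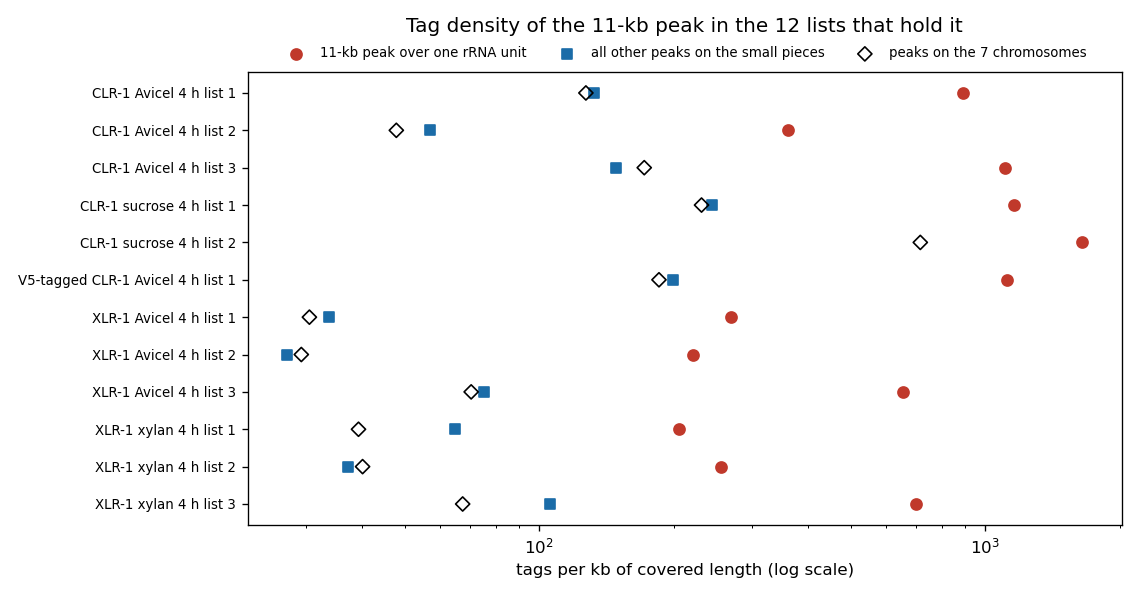
Tags per kb of covered length (x axis, log scale) for the 11-kb peak, for all other small-piece peaks and for the chromosome peaks, in the 12 lists that hold the 11-kb peak (rows). The 11-kb peak lies to the right in all 12, and sucrose list 2 has no other small-piece peak.

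On most lists the small pieces were also denser in peaks than the chromosomes, and the peaks there were longer. In CLR-1 Avicel list 1 there were 20.2 peaks per 100 kb of the small pieces and 4.72 per 100 kb of chromosome. In XLR-1 xylan list 3 the values were 7.50 and 1.63. The order was the opposite in XLR-1 Avicel list 3 (5.24 and 16.98), in CLR-1 at 24 h (9.77 and 20.0), in sucrose list 2 and in CLR-2 at 24 h. The median small-piece peak was 1.73 times as long as the median chromosome peak (geometric mean over 15 lists with at least 10 small-piece peaks; range 1.26 to 3.76; longer in 15 of 15; exact sign-flip test over lists, a permutation test, p = 6.1e-05, the smallest it can give; adjusted p = 0.000183). Tags per kilobase were 1.16 times as high (higher in 12 of 15; adjusted p = 0.0298 by the same exact test). The fold did not differ in a common direction, with a ratio of 0.939 and higher values in 7 of 15 lists (adjusted p = 0.364 by the exact test). These 3 tests were added after the values had been seen. They count lists of the same group as separate units and pool factors, tags, times and carbon sources. The 15 lists are therefore not replicates of a single condition. In XLR-1 the median fold on the small pieces was below that of the chromosomes in all 3 Avicel lists (11.2, 9.69 and 6.33 against 13.3, 13.1 and 8.30) and above it in all 3 xylan lists (27.5, 15.3 and 11.8 against 18, 14.99 and 8.52). In CLR-2 list 1 a fold below 1 was given for 111 of 145 small-piece peaks and for 2731 of 2854 chromosome peaks. In CLR-2 list 3 it was given for 83 of 172 and 1452 of 4355. The folds of both lists, including the 1.39 on Supercontig_10.21, therefore cannot be read as an enrichment over control.

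The share of a list's tags that fell on the small pieces was higher for XLR-1 on xylan than on Avicel in every list. It was 17.2%, 16.0% and 24.5% on xylan and 8.69%, 13.3% and 2.05% on Avicel, so the 2 groups did not overlap. The means were 19.3% ± 4.61 and 8.01% ± 5.65 (SD, n = 3 each), and 5.18% ± 0.866 against 1.59% ± 1.08 of peaks. With the 11-kb peak left out of the small-piece tags but kept in the list total, the mean shares were 9.38% and 2.06%. Avicel minus xylan in tags then moved from -11.3 to -7.32 percentage points. Both comparisons gave an exact permutation p of 0.1, the smallest that 3 lists against 3 allow, and 0.286 when adjusted over the 20 tests of this kind. The xylan lists held 701 to 989 peaks and the Avicel lists 930 to 6904. With every list cut to its 701 highest-scoring peaks, Avicel minus xylan was -8.12 percentage points in tags and -3.76 in peaks. In counts of small-piece peaks the groups met at 41, with 41 to 44 on xylan against 24 to 41 on Avicel.

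On Avicel at 4 h the small pieces held 5.30% ± 1.08 of CLR-1 peaks, 4.41% ± 0.541 of CLR-2 peaks and 1.59% ± 1.08 of XLR-1 peaks (SD, n = 3 each). XLR-1 did not overlap with either CLR factor (exact permutation p = 0.1 each, adjusted 0.286). In tags the shares were 9.36% ± 3.001, 6.23% ± 1.86 and 8.01% ± 5.65, and these lists overlapped between all 3 factors. With the 11-kb peak left out of the small-piece tags but kept in the list total, the mean shares were 6.79%, 6.23% and 2.06%. XLR-1 was then lower than CLR-1 by 4.74 and than CLR-2 by 4.18 percentage points (exact permutation p = 0.1 each, added after the values had been seen). The CLR-2 lists hold no such peak, and CLR-1 minus CLR-2 was then 0.562 percentage points (exact permutation p = 0.8). CLR-1 on sucrose had 7.76% of its tags on the small pieces in list 1 and 0.515% in list 2. Its mean of 4.14% ± 5.12 (SD, n = 2) could not be told from that on Avicel (exact permutation p = 0.3). None of the 20 tests passed an adjusted p of 0.05, and none reached an unadjusted p under 0.05. The same test under the alternatives of the closing section could not go below 0.1 either. For the groups with 1 list no test is possible: 7.85% of tags for V5-tagged CLR-1, 0.960% for CLR-1 at 24 h and 0 for CLR-2 at 24 h.

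**Figure D5:**
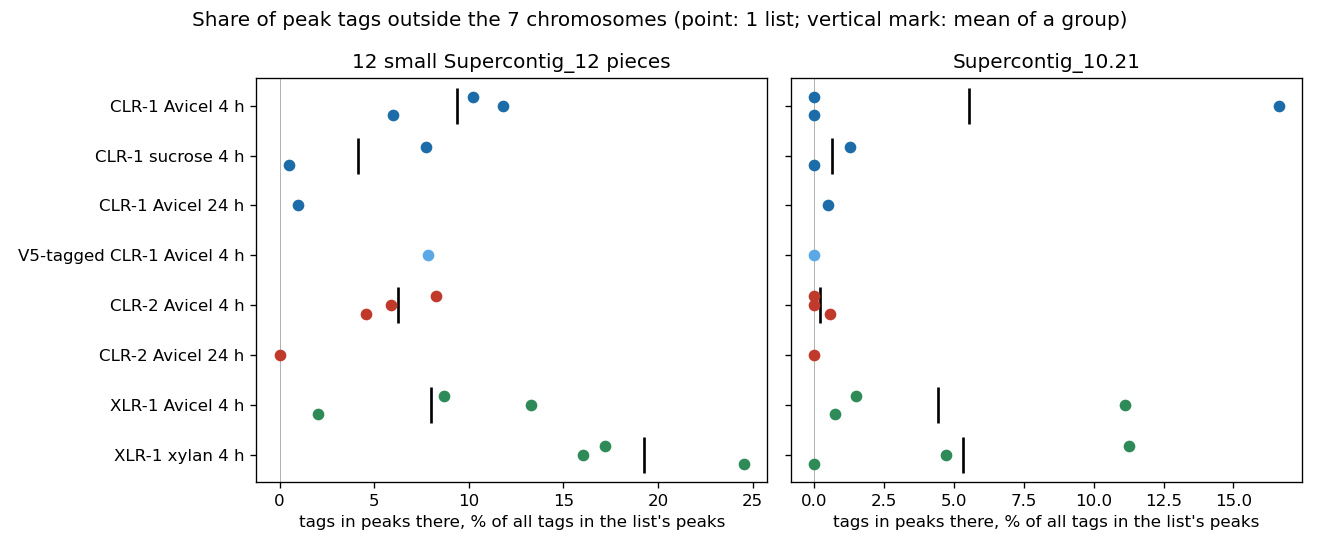
Tags in peaks on the 12 small pieces (left) and on Supercontig_10.21 (right), in % of all tags in the list's peaks (x axis), by group (y axis); each point is 1 list and the vertical mark is the mean of a group. The XLR-1 xylan lists are the highest on the small pieces, at 16.0% to 24.5%, and Supercontig_10.21 ranges from 0 to 16.6% within CLR-1 on Avicel.

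Supercontig_10.21 behaved otherwise: it was present in some lists of a group and missing in others. Of the 3 CLR-1 Avicel lists at 4 h only list 2 had a peak there, a single one of 51108 bp with 15351 tags, or 16.6% of all tags in that list. Sucrose list 1 had 1 peak of 20952 bp with 15336 tags, and sucrose list 2 had none. CLR-2 list 3 had 1 peak of 7830 bp with 9932 tags, while CLR-2 lists 1 and 2, the CLR-2 list at 24 h and the V5 list had none. In each of these 3 lists the peak had the most tags of the list. Its fold was 42.2 in CLR-1 Avicel list 2, 6.66 in sucrose list 1 and 1.39 in CLR-2 list 3.

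XLR-1 had peaks on Supercontig_10.21 in 5 of 6 lists. On Avicel there were 3, 9 and 6 peaks covering 14.2, 60.1 and 39.98 kb, with 757, 2443 and 3606 tags. On xylan lists 1 and 2 had 3 and 20 peaks covering 60.7 and 41.3 kb with 3993 and 1355 tags, and list 3 had none. The share of tags was 1.48%, 11.1% and 0.740% on Avicel and 11.3%, 4.72% and 0 on xylan, so the spread within each group was larger than the difference between the means (4.45% ± 5.79 and 5.33% ± 5.66, SD, n = 3 each; exact permutation p = 0.9). All 3 XLR-1 Avicel lists had a higher share of peaks there than any CLR-1 or CLR-2 list on Avicel at 4 h, 0.395% ± 0.497 against 0.0234% ± 0.0405 and 0.00736% ± 0.0128 (exact permutation p = 0.1 each, adjusted 0.286), but CLR-1 list 2 had the highest share of tags. Without XLR-1 Avicel list 2 the XLR-1 mean was 0.108%, and the differences were -0.0845 and -0.101 percentage points.

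The summits on Supercontig_10.21 recurred most often at a pair of points. In 4 XLR-1 lists the summit was at 5207 or 5208, with folds of 39.7 and 50.3 in Avicel lists 1 and 2 and 39.6 and 35.7 in xylan lists 1 and 2. The CLR-2 summit was at 5150. In 4 XLR-1 lists another summit stood between 28822 and 28834, with folds of 47.3 and 10.4 in Avicel lists 2 and 3 and 40.8 and 34.5 in xylan lists 1 and 2. The summit of the CLR-1 Avicel peak was at 28728. In xylan list 2 the other 18 peaks on the contig had folds of 9 or less. Avicel list 3 differed: it had no summit at the first point, its fold of 10.4 at the other ranked 3rd on the contig, and its highest fold there, 14.96, was at 20618. Each point was the summit of 5 lists in all. Other summits recurred in fewer lists. XLR-1 Avicel lists 2 and 3 and xylan list 2, for example, had summits at 1105, 1108 and 1140, with folds of 14.5, 3.31 and 9. Because the contig name is not that of the RefSeq table, no gene was assigned to either point.

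CLR-1 at 24 h had another kind of coverage. Its 28 peaks on Supercontig_10.21 were short, with a median length of 487 bp, and covered 14.3 kb in all with 23 to 239 tags each. The largest, at 7292 to 8086, had 239 tags and a fold of 13.2 and was 120th by tags in its list. Over the whole list of 8194 peaks the contig had 0.475% of the tags. Peaks in that list were short everywhere, with medians of 843 bp on the small pieces and 224 bp on the chromosomes.

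Peaks on the small pieces recurred between lists of a group. Peaks that overlapped by at least 1 bp were merged to regions, and a region was called shared when at least 2 lists of the group had a peak in it. For XLR-1 on xylan 43 of 44 small-piece regions were shared and 41 were in all 3 lists, where 56.1% of the regions on all contigs were shared. For XLR-1 on Avicel 34 of 41 were shared, 20 of them in all 3 lists, against 29.7% on all contigs. For CLR-2 the values were 55 of 68 against 37.8%, and for CLR-1 on Avicel 85 of 120 against 55%. For CLR-1 on sucrose 1 of 73 was shared, the 11-kb peak, against 15%. Except on sucrose, the share on the small pieces was above that on all contigs at this overlap, and peaks there were also longer, whose part in this was not tested. When 50% of both peaks had to overlap, CLR-1 on Avicel shared 72 of 190 small-piece regions (37.9%) against 39.5% on all contigs, so its excess was gone. At that overlap CLR-2 shared 98 of 276 (35.5%) against 24.2%, XLR-1 34 of 41 on Avicel against 20.4% and 43 of 44 on xylan against 47.4%, and CLR-1 on sucrose 1 of 73 against 6.46%. On Supercontig_10.21 no region was shared in CLR-1 or CLR-2. All 4 XLR-1 regions on Avicel and all 3 on xylan were shared, and at an overlap of 50% of both peaks none was shared on xylan.

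The authors' deposited table for XLR-1 xylan list 1 has a column on overlap with replicates. In it the 3 peaks on Supercontig_10.21 are marked YES. The 38 peaks on Supercontig_12.8 and Supercontig_12.9 are blank, the 2 on Supercontig_12.12 and those on Supercontig_12.15, Supercontig_12.16 and Supercontig_12.18 are marked YES, and the 1 on Supercontig_12.19 is marked NO. The column on whether a peak is trusted is blank for all of these 47 peaks in the authors' deposited table. A blank is not particular to them. Of the 942 chromosome peaks in that list, 338 with overlap NO and 208 with overlap YES are blank there too. The other chromosome peaks, all with overlap YES, have 336 entries of NO, 53 of YES and 7 of MAYBE.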

How the data were processed

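The 17 peak lists of 22 samples were used as deposited. They were made with MACS after alignment with Bowtie2 to NC12, per the submitters' processing notes; no source names a version or the handling of reads with several matches. For each peak the authors give a count of tags, a −log10 p score (multiplied by 10), a fold enrichment (ratio over control), a false discovery rate in percent (absent for CLR-1 at 24 h) and, in the deposited V5 list, FPKM. Rows without a contig were left out (122 in XLR-1 xylan list 2, 1 in CLR-1 at 24 h). Peaks were grouped by contig with Python 3.11.15 and pandas 2.3.3. Shares per list were compared by exact two-sided permutation tests over lists, with Benjamini-Hochberg adjustment over 20 tests. Contig span is the highest peak end. rRNA genes came from RefSeq (NC12). Functions were tested on simulated data. All contigs are named, with regions that recur in at least 2 lists of a group or hold most tags. Members, regions and tests were chosen with earlier results of these data known. Alternatives were thresholds on score (100), fold (5) and false discovery rate (5%), equally long lists (701 peaks), an overlap of 50% and leaving out each list. For the spacer distances only CLR-2 list 2 was left out. Tags are reads without molecular identifiers.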

Additional observations from a re-analysis of the deposited data

How the results depend on the processing

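The 7 comparisons of shares whose lists did not overlap kept their direction under every alternative run, but not always their separation or size. CLR-1 minus XLR-1 small-piece peaks overlapped under the score threshold, under the fold threshold and in equally long lists (exact permutation p = 0.3 each). CLR-2 minus XLR-1 small-piece peaks overlapped under the fold threshold (exact permutation p = 0.7) and moved from 2.81 to 15.8 by false discovery rate. On Supercontig_10.21 separation was lost as well (exact permutation p = 0.2 each). For CLR-1 minus XLR-1 peaks this was under the score and fold thresholds and in equally long lists. For CLR-2 minus XLR-1 it was in equally long lists, in peaks and in tags, and in tags by false discovery rate. Comparisons whose lists overlapped in the main analysis did not always keep their direction, and the cause was not tested. Differences are in percentage points, first group minus second, at 4 h. With a score of at least 100, the peaks on Supercontig_10.21 became 0.0115 for CLR-1 on Avicel against sucrose and 0.244 for XLR-1 on Avicel against xylan, whose tags became 1.20, and the small-piece tags of CLR-1 against XLR-1 became -1.53. With a fold of at least 5, CLR-1 on Avicel against sucrose became -1.31 (tags, Supercontig_10.21) and -0.489 (tags, small pieces), and CLR-1 against CLR-2 became -0.237 (peaks, small pieces). With a false discovery rate of at most 5%, CLR-1 against CLR-2 became -12.0 (peaks) and -4.98 (tags) on the small pieces, and CLR-2 against XLR-1 became 6.34 (tags). With equally long lists, the small-piece peaks of CLR-1 against CLR-2 became -2.38 and the tags of CLR-1 against XLR-1 -1.66. With the 11-kb peak left out of the small-piece tags but kept in the list total, those tags became 4.18 for CLR-2 against XLR-1. They moved from 1.35 to 4.74 for CLR-1 against XLR-1 and from -11.3 to -7.32 for XLR-1 on Avicel against xylan.

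Leaving out 1 list at a time, tags on Supercontig_10.21 ranged from -0.633 to 7.68 for CLR-1 on Avicel against sucrose, -0.187 to 8.13 for CLR-1 against CLR-2, -4.45 to 4.43 for CLR-1 against XLR-1 and -4.22 to 2.09 for XLR-1 on Avicel against xylan. Values without CLR-1 Avicel list 2, which holds that factor's Avicel peak there, gave the lower end of the first 3. Peaks there ranged from -0.0405 to 0.0234, -0.00736 to 0.0277 and, for XLR-1 on Avicel against xylan, -0.963 to 0.243, and XLR-1 on Avicel differed from CLR-1 by -0.525 to -0.0845 and from CLR-2 by -0.541 to -0.101. In tags CLR-2 minus XLR-1 moved from -4.26 to -0.925 without XLR-1 Avicel list 2. Small-piece tags ranged from -1.63 to 3.99 for CLR-1 against XLR-1 and -4.76 to 0.865 for CLR-2 against XLR-1. For XLR-1 on Avicel against xylan they stayed between -13.9 and -8.27, and the spacer share difference stayed between 40.4 and 43.3.

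The 72 peaks on Supercontig_10.21 became 44 by false discovery rate, since the 28 of the CLR-1 list at 24 h have no such value, and 36 with equally long lists, and the 1115 small-piece peaks became 399 by fold, 544 with equally long lists and 710 without the CLR-2 lists. Shared small-piece regions became 54 (score) and 41 (fold) for CLR-1 on Avicel, 22 (score) for XLR-1 on Avicel, 0 (fold) for CLR-1 on sucrose and for CLR-2, and 98 for CLR-2 at an overlap of 50%, where the regions rose from 68 to 276 and the shared portion fell to 35.5%. On Supercontig_10.21 they became 2 (score, and fold) for XLR-1 on Avicel and 0 for xylan at 50%. Leaving out lists gave 55 to 70 (CLR-1), 39 to 103 (CLR-2), 20 to 30 (XLR-1 on Avicel), and on Supercontig_10.21 1 to 4 (XLR-1 on Avicel) and 0 to 3 (xylan). Exchanged rRNA runs gave 41.3% of XLR-1 summits in spacers. No paired analysis was possible because a list could be tied to a group but not to a numbered sample. Alternatives without the 11-kb peak, without CLR-2 lists, without CLR-2 list 2 for the spacer distances and with exchanged runs were chosen after seeing the data.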
